A study of Mus musculus with 9 samples.

Results

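The genes described encode receptors and integrin chains that direct T cells to the gut wall or hold them there, together with a chromosomal neighbour of one of them. They are Ccr9, Gpr15, Itga4, Itgb7, Itgae and Lztfl1, the 6 genes of a list that was taken by symbol from the 23936 genes with a symbol in the table. RNA was sequenced from OT-I cells, CD8+ T cells of mice that carry 1 transgenic T cell receptor, specific for an ovalbumin peptide held by MHC class I. MLN-primed cells came from the MLN, the usual abbreviation for mesenteric lymph nodes (sample titles with "oralmln"), spleen-primed cells came from the spleen (titles with "ivspleen"), and naive cells came from the spleen, with 3 libraries in each group. All groups share the OT-I receptor. The labels used here do not give the strain, age, priming agent, dose, time, sorting gate, or whether animals were pooled, and the organ and the route words of the titles, oral with the MLN and iv with the spleen, change together, so site and route of priming cannot be told apart. The series is titled as a study of how retinoic acid signals during priming bear on intestinal CD103+ resident memory, and setting MLN-primed against spleen-primed cells addresses site and route of priming jointly.

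Circulating T cells enter the gut wall when receptors on their surface meet signals made there. CCR9 is the receptor for the chemokine CCL25 of the small intestine, GPR15 is a receptor that guides T cells to the large intestine, and the integrin α4β7, made of the chains encoded by Itga4 and Itgb7, binds the vessel addressin MAdCAM-1. The same β7 chain pairs with αE, the CD103 chain encoded by Itgae, to form the integrin that holds T cells to E-cadherin on epithelial cells, and retinoic acid made by gut dendritic cells is known to induce CCR9 and α4β7 in T cells during priming. LZTFL1 is a regulator of the BBSome, a coat complex that carries membrane proteins in cilia, and its gene lies beside Ccr9.

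Levels are FPKM, the fragments per kilobase of transcript, scaled to the mapped fragments of the library, so levels of different genes can be set side by side per length. Differences are on the scale of log2(FPKM + 1), which understates the change of genes near 0, and a difference is said to pass when the Benjamini-Hochberg adjusted p of limma over the 10185 genes tested is under 0.05. Total FPKM ran from 612887 to 720165 per library, and the steps between the lowest values put the depth at about 25460000 to 33550000 fragments in MLN-primed, 26820000 to 28650000 in spleen-primed and 20350000 to 25380000 in naive libraries. Values of MLN-primed library 1 changed with transcript length relative to its group by -0.0881 on the log2 scale per doubling, and those of spleen-primed library 3 by 0.0774, the outermost values of the 9 libraries. The markers of CD8 T cells (5 of 5 at 1 FPKM or more in every group) summed to 1377 to 1458 FPKM in MLN-primed, 1980 to 2040 in spleen-primed and 2894 to 3203 in naive libraries. Of the CD4 and regulatory T cell list (5 genes), Cd4 averaged 0.0786 FPKM in MLN-primed, 0.0735 in spleen-primed and 0.212 in naive cells. In the same order, Cd40lg averaged 5.86, 5.42 and 14.9 FPKM and Foxp3 0.772, 0.829 and 0.755 FPKM. Zbtb7b, at 3.83, 4.88 and 0.405 FPKM, and Ctla4, at 4.83, 3.51 and 0.536 FPKM, were higher in primed cells. Among the lists of other cells, the myeloid list (6 of 7 genes in the table) summed to 8.69 to 9.57 FPKM in MLN-primed, 17.7 to 19.6 in spleen-primed and 7.13 to 49.8 in naive libraries. Cd68 led it in both primed groups, with 7.69 FPKM in MLN-primed and 15.6 in spleen-primed cells, beside 1.06 FPKM in naive cells. S100a8 led it in naive cells, with 0 FPKM in MLN-primed, 0.102 in spleen-primed and 11.2 in naive cells.

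Of the 6 genes, 4 (Ccr9, Lztfl1, Gpr15 and Itgae) were higher in MLN-primed cells than in spleen-primed cells and the other 2 did not pass, where 30.4% of all tested genes passed in either direction and 17.3% were higher. Itgb7 had an unadjusted limma p of 0.0295 and did not pass after adjustment. The libraries of these groups did not overlap for those 4 genes and for Itgb7, which was also so for 46.1% of all tested genes. Against naive cells, 5 of the 6 passed in MLN-primed cells, 3 higher and 2 lower, where 78.7% of all tested genes passed and 45.5% were higher, and 5 of 6 passed in spleen-primed cells, 2 higher and 3 lower, where 75.8% of all tested genes passed and 43.1% were higher. Libraries did not overlap for 80.4% of all tested genes between MLN-primed and naive cells and for 78.2% between spleen-primed and naive cells, so a call against naive cells sets no gene apart. The spleen-primed and MLN-primed contrasts against naive cells share the naive libraries. All 6 genes passed the filter on low values, of which Gpr15 did so through the 3 MLN-primed libraries and spleen-primed library 1, and Ccr9 and Itgae through the MLN-primed and naive libraries.

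**Figure D1:**
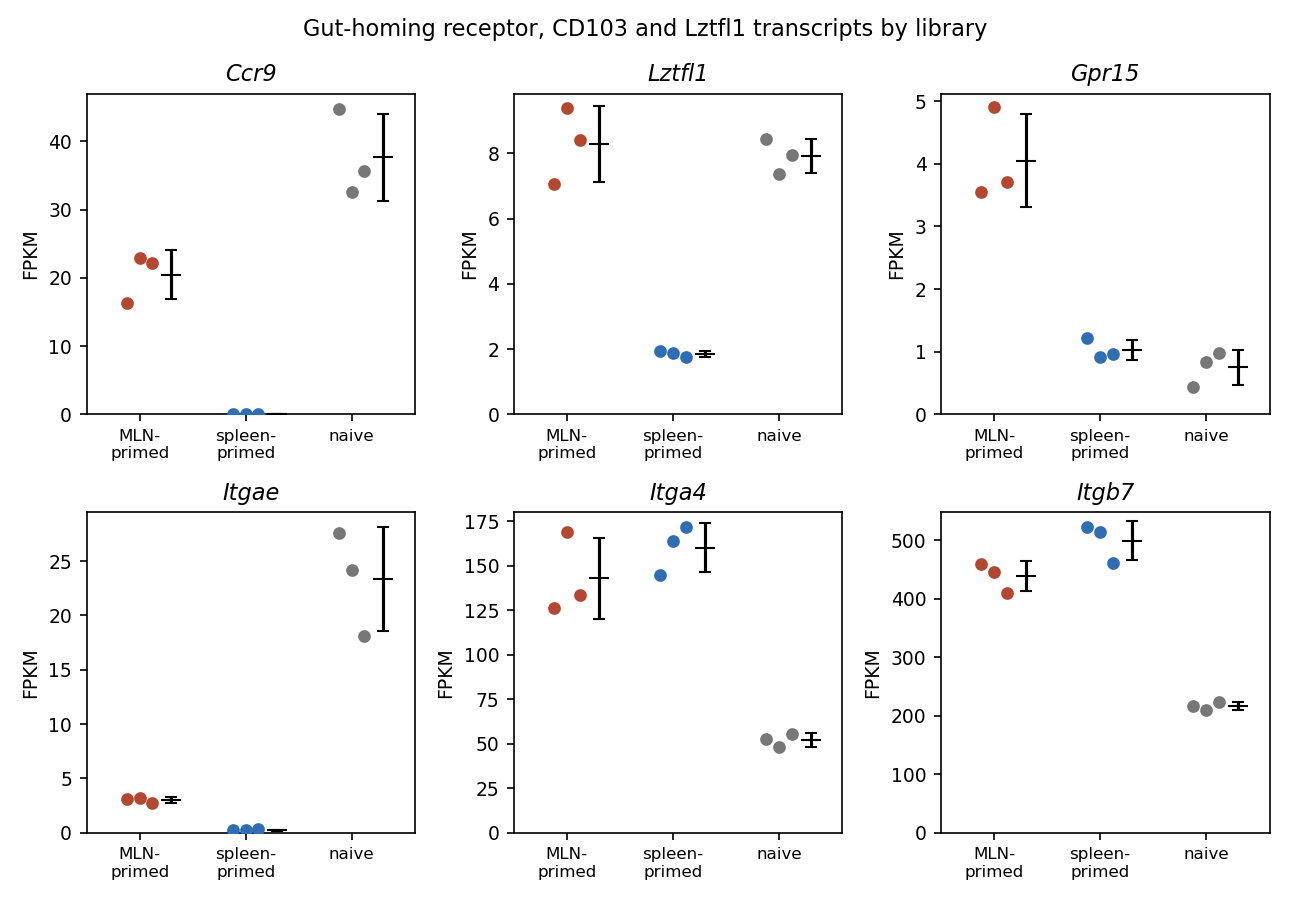
FPKM of the 6 genes (vertical axes, each from 0) in each of the 9 libraries, in the order MLN-primed, spleen-primed and naive, with the group mean and SD as black bars beside the points (n = 3). Ccr9, Lztfl1 and Itgae were lowest in spleen-primed cells, Gpr15 was highest in MLN-primed cells, and Itga4 and Itgb7 were lowest in naive cells.

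Ccr9 (gene ID 12769) lies on the plus strand at chr9:123767211-123783457, in the mouse build GRCm38.p6, the assembly that mm10 names. It was at 16.3, 22.9 and 22.2 FPKM in MLN-primed libraries, 0.0349, 0.0807 and 0.0419 FPKM in spleen-primed libraries, and 44.8, 32.5 and 35.7 FPKM in naive libraries. The 3 groups did not overlap, and the order was naive, MLN-primed and spleen-primed from high to low. Means were 20.4 ± 3.61 FPKM in MLN-primed, 0.0525 ± 0.0247 in spleen-primed and 37.7 ± 6.35 in naive cells (SD, n = 3 each), so MLN-primed cells held 54.3% and spleen-primed cells 0.139% of the naive mean. In MLN-primed cells the log2 difference was 4.33 ± 0.15 (SE) over spleen-primed cells (limma, adjusted p = 7.94e-07) and -0.85 ± 0.15 against naive cells (limma, adjusted p = 0.000344). Spleen-primed cells stood at -5.19 ± 0.15 against naive cells (limma, adjusted p = 7.98e-10).

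The spleen-primed level of Ccr9 rests on few fragments. Read back from the FPKM, the 3 spleen-primed libraries held about 12 fragments together with the shorter of the annotated transcripts and 22 with the longer. The Poisson 95% limits were 6.20 to 21.0 and 13.8 to 33.3 fragments. Of the FPKM means, the ratio of MLN-primed to spleen-primed cells was 389, with counting limits from 223 to 753 for the shorter transcript, and that of naive to spleen-primed cells was 717, from 411 to 1388, limits that cover counting error only. In bulk RNA, fewer cells that carry a transcript and less of it per cell cannot be told apart, for Ccr9 and for each gene that follows.

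Ccr9 is also made by plasmacytoid dendritic cells and by thymocytes, so their markers are set beside it. Plasmacytoid markers other than Ccr9 (5 in the table) summed to 0.367 to 0.494 FPKM in MLN-primed, 0.458 to 0.905 in spleen-primed and 11.5 to 15.3 in naive libraries, nearly all of the naive sum being Pacsin1 at 11.9 FPKM, with none of the 5 at 1 FPKM in either primed group. Siglech, a defining surface marker of that cell, averaged 0.00444 FPKM in MLN-primed, 0 in spleen-primed and 0.237 FPKM in naive cells. The thymocyte list (5 genes) summed to 7.06 to 7.55 FPKM in MLN-primed, 8.99 to 11.6 in spleen-primed and 24.0 to 26.4 in naive libraries, led by Cd1d1. Rag2 was at 0 in all 9 libraries. Dntt averaged 0.0725 FPKM in MLN-primed, 0.0451 in spleen-primed and 6.20 in naive cells, and Rag1 averaged 0.0716, 0.0626 and 0.196 FPKM. Ptcra went the other way, at 0.33 FPKM in MLN-primed, 0.0821 in spleen-primed and 0.00694 in naive cells. The part of plasmacytoid dendritic cells and thymocytes in the Ccr9 levels was not tested.

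Lztfl1 (gene ID 93730) lies on the minus strand at chr9:123694404-123717625, with 49585 bases between it and Ccr9, and the pair is transcribed in opposite directions away from the stretch between them. It was at 7.07, 9.39 and 8.40 FPKM in MLN-primed libraries, 1.93, 1.87 and 1.77 FPKM in spleen-primed libraries, and 8.43, 7.38 and 7.96 FPKM in naive libraries. The spleen-primed libraries lay below all others, and the MLN-primed and naive libraries overlapped. MLN-primed cells (mean 8.29 ± 1.16 FPKM) exceeded spleen-primed cells (1.86 ± 0.0849; SD, n = 3 each) by a log2 difference of 1.69 ± 0.10 (limma, adjusted p = 1.31e-05). The naive mean was 7.92 ± 0.526 FPKM. MLN-primed and naive cells differed by 0.05, with a 95% interval of -0.18 to 0.28 (limma, adjusted p = 0.662). Spleen-primed cells fell by 1.64 ± 0.10 against naive cells on the log2 scale (limma, adjusted p = 2.84e-07). The B and plasma cell list (5 of 7 genes in the table) moved with Lztfl1, summing to 11.8 to 15.1 FPKM in MLN-primed, 6.52 to 8.37 in spleen-primed and 11.2 to 14.95 in naive libraries. Nearly all of it was Cd79b, at 12.3, 7.02 and 12.5 FPKM in that order, while Cd79a averaged 0.127, 0.186 and 0.231 FPKM.

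Ccr9 and Lztfl1 were both lowest in spleen-primed cells, each with that group below every other library, as was Itgae, which had no promoter entry. The starts of Ccr9 and Lztfl1 are shown, together with that of Gpr15, the other homing receptor that was higher in MLN-primed cells. Each window runs from 250 bases before to 50 after the annotated start, is written 5′ to 3′ on the gene's own strand, and comes from RefSeq on GRCm38.p6, where 5 of the 6 genes had an entry. Capitals mark matches to the motifs searched on both strands: the letters AGGTCA of a retinoid half-site and its variants with AGTTCA, then with GGGTCA or else with GGTTCA, the RUNX letters TGTGGT, the NFAT letters GGAAAA, the AP-1 letters TGANTCA, the SMAD letters GTCTAGAC and the ETS letters CCGGAAG.
Ccr9, chr9:123766961-123767260, plus strand: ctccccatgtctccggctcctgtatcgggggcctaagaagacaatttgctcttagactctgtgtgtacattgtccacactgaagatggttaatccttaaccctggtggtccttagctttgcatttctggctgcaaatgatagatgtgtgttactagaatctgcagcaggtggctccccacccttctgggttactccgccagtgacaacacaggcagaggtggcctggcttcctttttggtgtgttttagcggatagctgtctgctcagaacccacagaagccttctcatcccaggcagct
Lztfl1, chr9:123717576-123717875, minus strand: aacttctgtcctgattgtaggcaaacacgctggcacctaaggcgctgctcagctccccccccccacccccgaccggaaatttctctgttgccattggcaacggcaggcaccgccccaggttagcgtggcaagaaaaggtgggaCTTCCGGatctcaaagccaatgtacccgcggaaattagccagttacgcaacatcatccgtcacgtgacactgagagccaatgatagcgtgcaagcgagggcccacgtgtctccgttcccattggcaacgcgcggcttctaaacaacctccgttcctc
Gpr15, chr16:58718823-58719122, minus strand: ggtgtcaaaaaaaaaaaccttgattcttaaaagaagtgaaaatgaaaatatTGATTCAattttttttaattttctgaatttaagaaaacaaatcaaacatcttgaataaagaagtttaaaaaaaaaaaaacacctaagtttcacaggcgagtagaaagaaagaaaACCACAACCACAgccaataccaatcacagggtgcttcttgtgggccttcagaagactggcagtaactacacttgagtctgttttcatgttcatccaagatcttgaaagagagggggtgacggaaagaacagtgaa

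The Ccr9 window held none of these letters, and the Lztfl1 window held 1 ETS match, 107 bases before the start on the opposite strand. The Gpr15 window held 2 RUNX matches side by side on the opposite strand and 1 AP-1 match. The AP-1 pattern TGANTCA, though not the matched letters themselves, reads the same way on both strands. The ETS letters were in 8.86% of 32851 promoter windows of the same length, the RUNX letters in 16.8% and the AP-1 letters in 7.81%. The windows differed in base composition, with 51.3% G and C and 4 CpG in Ccr9, 57.7% and 21 CpG in Lztfl1, and 33.7% and 2 CpG in Gpr15, where the median over all windows was 52.7% G and C. Of the integrin genes with an entry, Itga4 held 1 RUNX match and Itgb7 1 GGGTCA match, and any of the retinoid half-sites was in 43.7% of all windows. The Itgb7 window, chr15:102231886-102232185, lies inside the annotated gene, which reaches 102233405 on the upstream side, and so is not at the outer end of the gene. A match describes the letters only.

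Around Ccr9, 14 protein-coding genes within 500 kb on either side were described, and 8 of them were tested. MLN-primed cells exceeded spleen-primed cells in 2 of the 8, Ccr9 and Lztfl1, and were lower in 2, the chemokine receptor genes Cxcr6 and Ccr2, against 30.4% of all genes called. Ccr2 averaged 29.9 FPKM in MLN-primed cells and 83.9 FPKM in spleen-primed cells (log2 difference -1.46, limma adjusted p = 7.47e-05). Fyco1, 6042 bases beyond Ccr9, averaged 0.848 ± 0.546 FPKM in MLN-primed, 0.908 ± 0.625 in spleen-primed and 4.20 ± 1.03 FPKM in naive cells, and the primed groups differed by -0.04 ± 0.27 (limma, adjusted p = 0.923). Cxcr6, which lies within the span of Fyco1 on the other strand, averaged 77.2 FPKM in MLN-primed cells and 98.5 FPKM in spleen-primed cells (log2 difference -0.34, limma adjusted p = 0.0351), and this call was lost in 7 of 20 other settings. On the far side of Lztfl1, 15571 bases away, Slc6a20a was at 0.444, 0.407 and 0.550 FPKM in MLN-primed libraries and 0.0626, 0.0215 and 0 FPKM in spleen-primed libraries, and it was listed at 0 in all naive libraries. It was too low for the test.

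**Figure D2:**
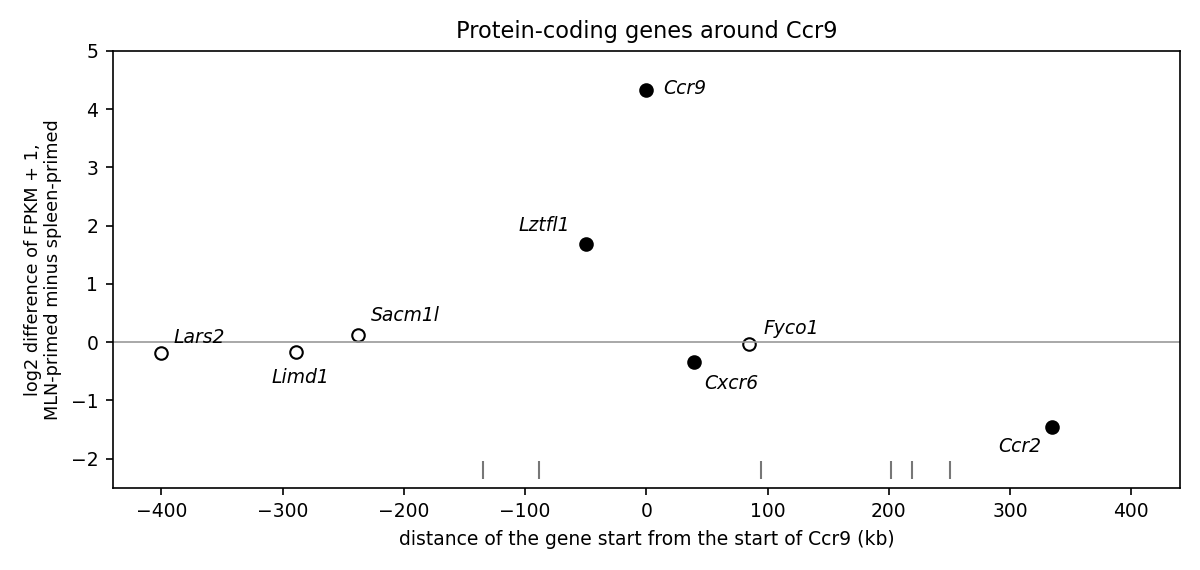
Log2 difference of FPKM + 1, MLN-primed minus spleen-primed (vertical axis), of protein-coding genes by the distance of their start from that of Ccr9 in kb (horizontal axis). Filled points passed the test, open points did not, and ticks at the bottom mark 6 genes too low to test; Ccr9 at 4.33 and Lztfl1 at 1.69 stand above the others, and Ccr2 at -1.46 lies lowest.

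Gpr15 (gene ID 71223, minus strand, chr16:58716643-58718872) was high in MLN-primed cells alone among the groups. It was at 3.55, 4.90 and 3.71 FPKM in MLN-primed libraries, 1.21, 0.919 and 0.958 FPKM in spleen-primed libraries, and 0.432, 0.833 and 0.975 FPKM in naive libraries. All MLN-primed libraries lay above all others, and the spleen-primed and naive libraries overlapped. Means were 4.05 ± 0.738 FPKM in MLN-primed, 1.03 ± 0.159 in spleen-primed and 0.747 ± 0.282 in naive cells (SD, n = 3 each). MLN-primed cells differed from spleen-primed cells by 1.31 ± 0.14 (limma, adjusted p = 0.000196) and from naive cells by 1.54 ± 0.14 (limma, adjusted p = 3.87e-06) on the log2 scale. Spleen-primed cells differed from naive cells by 0.23, with a 95% interval of -0.09 to 0.55 (limma, adjusted p = 0.171). About 126 fragments in the spleen-primed and 77 in the naive libraries stood behind the low levels.

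Both tested neighbours of Gpr15 were higher in MLN-primed cells as well. Cpox, an enzyme of heme synthesis, averaged 31.6 ± 1.11 FPKM in MLN-primed, 21.6 ± 0.861 in spleen-primed and 6.17 ± 0.656 FPKM in naive cells. Its log2 difference between MLN-primed and spleen-primed cells was 0.53 ± 0.08 (limma, adjusted p = 0.00125). Cldnd1, listed in the table as Cldn25 and 9037 bases from Gpr15, averaged 75.6 ± 5.53 FPKM in MLN-primed, 46.7 ± 3.98 in spleen-primed and 14.0 ± 0.588 FPKM in naive cells, a log2 difference of 0.68 ± 0.08 between the primed groups (limma, adjusted p = 0.000358). Unlike Gpr15, both were also higher in spleen-primed than in naive cells, by 1.66 ± 0.08 each.

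**Figure D3:**
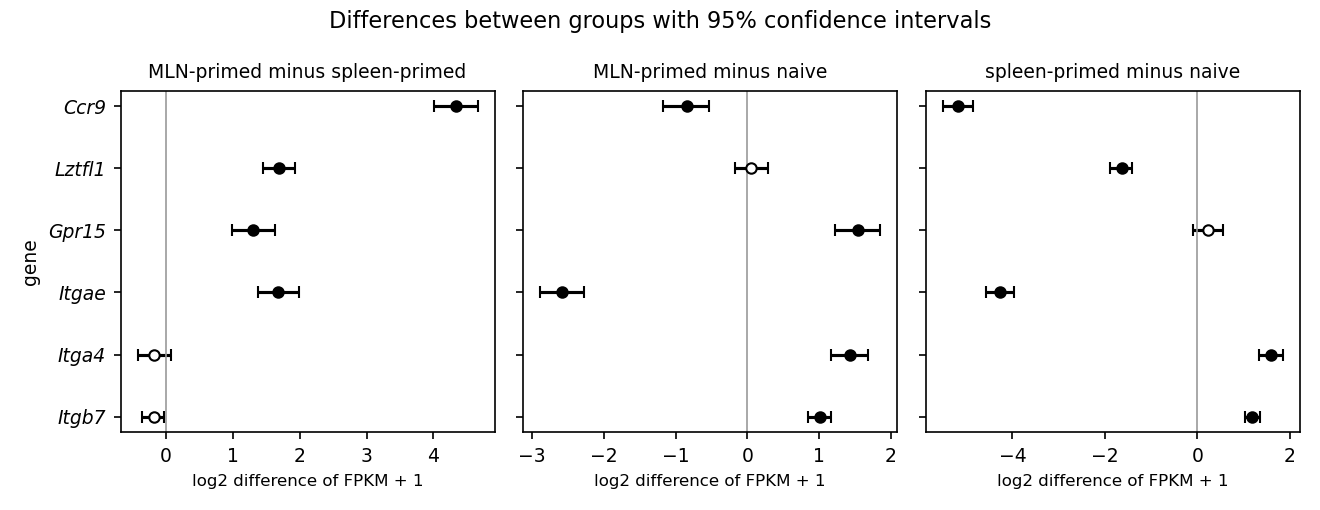
Log2 differences of FPKM + 1 for the 6 genes (rows) in the 3 comparisons (panels), with 95% confidence intervals. Filled points passed the test and open points did not; between MLN-primed and spleen-primed cells Ccr9 stood at 4.33, Lztfl1, Itgae and Gpr15 between 1.31 and 1.69, and the intervals of Itga4 and Itgb7 lay near 0.

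Itgae (gene ID 16407, plus strand, chr11:73090505-73147449), the gene of CD103, was highest in naive cells. It was at 3.10, 3.20 and 2.71 FPKM in MLN-primed libraries, 0.217, 0.214 and 0.304 FPKM in spleen-primed libraries, and 27.6, 24.2 and 18.1 FPKM in naive libraries. The 3 groups did not overlap, and the MLN-primed libraries lay between the others. Means were 3.003 ± 0.262 FPKM in MLN-primed, 0.245 ± 0.0513 in spleen-primed and 23.3 ± 4.80 in naive cells (SD, n = 3 each), which put MLN-primed cells at 12.9% and spleen-primed cells at 1.05% of the naive mean. MLN-primed cells exceeded spleen-primed cells by 1.68 ± 0.14 on the log2 scale (limma, adjusted p = 4.57e-05). Against naive cells, the log2 difference was -2.59 ± 0.14 in MLN-primed (limma, adjusted p = 6.05e-08) and -4.27 ± 0.14 in spleen-primed cells (limma, adjusted p = 2.06e-09). About 75 fragments stood behind the spleen-primed level, and the ratio of the FPKM means, MLN-primed over spleen-primed, was 12.2 with counting limits of 9.78 to 15.6.

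Haspin (listed as Gsg2), the gene of a mitotic kinase, lies inside Itgae on the opposite strand. It averaged 15.9 ± 1.27 FPKM in MLN-primed, 17.6 ± 0.825 in spleen-primed and 1.01 ± 0.274 FPKM in naive cells. Haspin was therefore low where Itgae was high, and the use of strand in the authors' quantification is not given in the sources used here. Upstream of Itgae, Ncbp3 (listed as 1200014J11Rik), 6925 bases away, averaged 14.6 ± 0.864 FPKM in MLN-primed, 12.1 ± 0.0246 in spleen-primed and 9.01 ± 0.79 in naive cells. Its primed groups differed by 0.25 ± 0.08 (limma, adjusted p = 0.0476), a call lost in 11 of 20 other settings. Camkk1, 48431 bases away on the same side, averaged 0.619 ± 0.0361 FPKM in MLN-primed cells and 0.310 ± 0.0389 FPKM in spleen-primed cells. These differed by 0.31 ± 0.07 on the log2 scale (limma, adjusted p = 0.00888). Both of these means lay under 1 FPKM, and Camkk1 passed the filter on low values through the naive libraries (1.66 ± 0.0665 FPKM).

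CD103 also marks some dendritic cells and intraepithelial lymphocytes. The list of conventional dendritic cells (7 genes) summed to 47.3 to 58.6 FPKM in MLN-primed, 93.0 to 105 in spleen-primed and 2.09 to 3.99 in naive libraries, with Itgax at 42.0 FPKM in MLN-primed, 94.8 in spleen-primed and 1.06 in naive cells. Clec9a, Flt3 and Cd209a were at 0 in all MLN-primed libraries. They averaged 0.00434, 0.00333 and 0 FPKM in spleen-primed cells, and 0.473, 0.589 and 0.184 FPKM in naive cells. Zbtb46 was also highest in naive cells, unlike Itgax, at 0.0109 FPKM in MLN-primed, 0.0367 in spleen-primed and 0.134 in naive cells. Xcr1 averaged 0.472, 0.592 and 0.537 FPKM in the same order. The γδ and intraepithelial lymphocyte list (3 of 5 genes in the table) summed to 0.963 to 1.39 FPKM in MLN-primed, 2.06 to 2.80 in spleen-primed and 1.73 to 5.68 in naive libraries. Batf3, a factor of CD103+ dendritic cells, averaged 11.3 ± 1.95 FPKM in MLN-primed, 2.56 ± 0.721 in spleen-primed and 0.307 FPKM in naive cells, and its MLN-primed level, like that of Itgae, exceeded the spleen-primed one (log2 difference 1.79 ± 0.17, limma adjusted p = 8.59e-05). The part of such cells in the Itgae levels was not tested.

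Itga4 (gene ID 16401, plus strand, chr2:79255426-79333114) was at 127, 169 and 133 FPKM in MLN-primed libraries, 145, 164 and 172 FPKM in spleen-primed libraries, and 52.5, 48.2 and 55.7 FPKM in naive libraries. The primed groups overlapped, and both lay above every naive library. Means were 143 ± 22.8 FPKM in MLN-primed, 160.1 ± 13.8 in spleen-primed and 52.1 ± 3.75 in naive cells (SD, n = 3 each). MLN-primed and spleen-primed cells differed by -0.17, with a 95% interval of -0.42 to 0.08 (limma, adjusted p = 0.301). Against naive cells Itga4 was higher by 1.43 ± 0.11 in MLN-primed (limma, adjusted p = 1.21e-06) and by 1.60 ± 0.11 in spleen-primed cells (limma, adjusted p = 6.65e-07). The 3′ end of Itga4 overlaps Cerkl on the other strand, and Cerkl averaged 3.10 FPKM in MLN-primed, 3.25 in spleen-primed and 1.53 FPKM in naive cells.

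Itgb7 (gene ID 16421, minus strand, chr15:102215994-102233405) was the most abundant of the 6 genes in every group, at rank 216 of the 10185 tested genes in MLN-primed, 201 in spleen-primed and 275 in naive cells. It was at 460, 446 and 410 FPKM in MLN-primed libraries, 522, 514 and 461 FPKM in spleen-primed libraries, and 217, 210 and 224 FPKM in naive libraries. The lowest spleen-primed library, 3, at 461 FPKM, stood just above the highest MLN-primed library, 1, at 460 FPKM, and both primed groups lay above naive cells. MLN-primed cells averaged 438 ± 25.6 FPKM, spleen-primed cells 499 ± 33.3 and naive cells 217 ± 6.88 (SD, n = 3 each). The log2 difference between MLN-primed and spleen-primed cells was -0.18, with a 95% interval of -0.35 to -0.02, and did not pass (limma, adjusted p = 0.0821); without spleen-primed library 3 it was -0.24 and passed (adjusted p = 0.0389). Against naive cells the difference was 1.01 ± 0.07 in MLN-primed (limma, adjusted p = 5.69e-07) and 1.19 ± 0.07 in spleen-primed cells (limma, adjusted p = 2.05e-07). Rarg, a retinoic acid receptor gene 1532 bases from Itgb7, averaged 2.80 ± 0.273 FPKM in MLN-primed, 3.63 ± 0.521 in spleen-primed and 19.4 ± 0.486 FPKM in naive cells, the opposite order to Itgb7 against naive cells. Zfp740, 383 bases from Itgb7 on its other side, was likewise highest in naive cells. It averaged 14.4 ± 0.789 FPKM in MLN-primed, 18.1 ± 1.51 in spleen-primed and 39.0 ± 2.66 in naive cells. The next genes outward, Csad and Mfsd5, passed in no comparison.

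Ratios within a library set the chains against each other per length and do not depend on the scale of the library. The α4 to β7 transcript ratio averaged 0.327 ± 0.0521 in MLN-primed, 0.323 ± 0.0479 in spleen-primed and 0.240 ± 0.0098 in naive cells (SD, n = 3 each). Primed groups differed by 0.01 on the log2 scale (exact permutation test, two-sided, p = 0.80), a sign that turned when MLN-primed library 2 (-0.10) or spleen-primed library 1 (-0.09) was left out. MLN-primed cells exceeded naive cells by 0.43 and spleen-primed cells exceeded naive cells by 0.42, without overlap (exact permutation p = 0.10 each, the smallest that 3 against 3 can give).

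Itgae stood at 0.684% of Itgb7 in MLN-primed, 0.0498% in spleen-primed and 10.8% in naive cells, and Itga4 was above Itgae in every library of every group. The Ccr9 to Lztfl1 ratio was 2.46 ± 0.168 in MLN-primed, 0.0283 ± 0.0132 in spleen-primed and 4.73 ± 0.501 in naive cells; Ccr9 was thus above Lztfl1 in MLN-primed and naive cells and below it in spleen-primed cells. In both ratios no 2 groups overlapped (exact permutation p = 0.10 for each pair, the smallest possible).

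**Figure D4:**
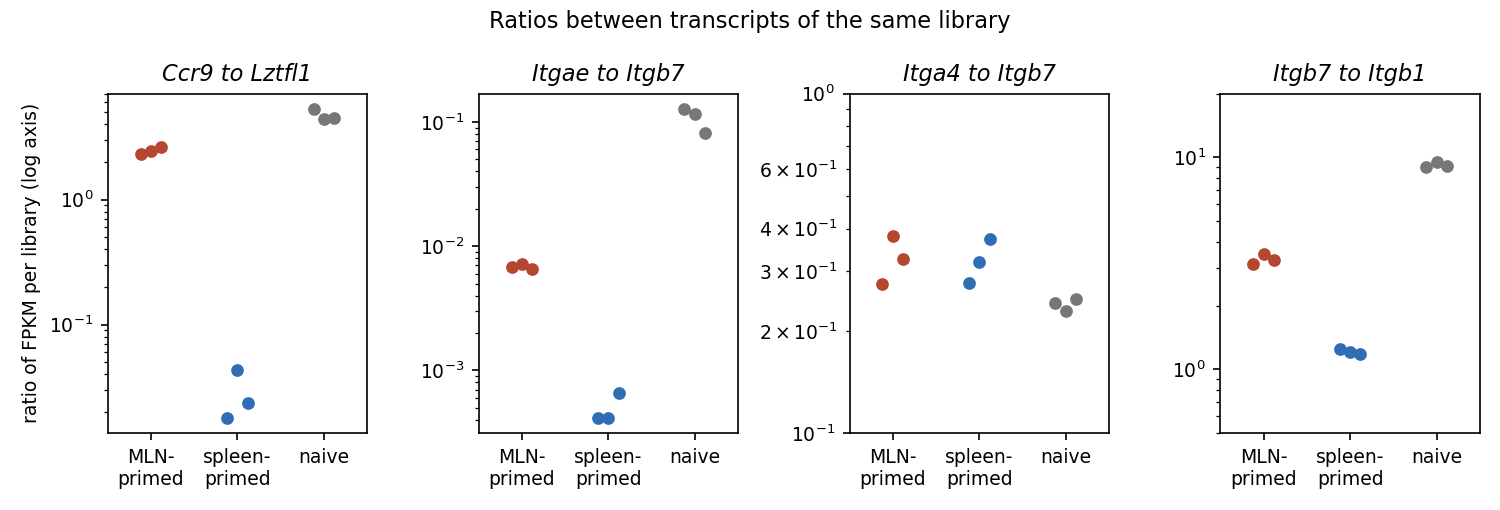
Ratio of FPKM between pairs of transcripts in each library (vertical axes, log scale), in the order MLN-primed, spleen-primed and naive. The Ccr9 to Lztfl1 and Itgae to Itgb7 ratios were lowest in spleen-primed cells, the Itga4 to Itgb7 ratio had means of 0.327 in MLN-primed and 0.323 in spleen-primed cells, and the Itgb7 to Itgb1 ratio was 3.29 in MLN-primed, 1.21 in spleen-primed and 9.21 in naive cells.

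Of 26 integrin chain genes, 14 were tested, and between MLN-primed and spleen-primed cells 2 were higher (Itgae and Itgb3), 7 were lower and 5 did not pass, with a median log2 difference of -0.29 against 0.03 over all tested genes. Itgb1, the β1 chain that pairs with α4 in the integrin α4β1, averaged 133 ± 11.4 FPKM in MLN-primed, 411 ± 19.1 in spleen-primed and 23.6 ± 1.29 FPKM in naive cells. MLN-primed cells stood at -1.62 ± 0.08 against spleen-primed cells for Itgb1 (limma, adjusted p = 4.56e-06). Itgam, the αM chain of myeloid cells and effector lymphocytes, averaged 9.30 ± 1.44 FPKM in MLN-primed, 30.3 ± 1.65 in spleen-primed and 0.326 ± 0.169 FPKM in naive cells, with a log2 difference of -1.61 ± 0.13 between the primed groups (limma, adjusted p = 3.62e-05). The LFA-1 genes Itgal and Itgb2 were among the 7 that were lower, at -0.74 and -0.62. Over all tested genes 17.3% were higher and 13.1% lower between the primed groups. Against naive cells, 10 of the 14 chains were higher and 3 lower in each primed group, where 45.5% of all tested genes were higher and 33.2% lower in MLN-primed cells and 43.1% and 32.7% in spleen-primed cells, with a median of 0.99 in MLN-primed cells, against 0.15 over all tested genes, and of 1.38 in spleen-primed cells, against 0.10 over all tested genes.

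**Figure D5:**
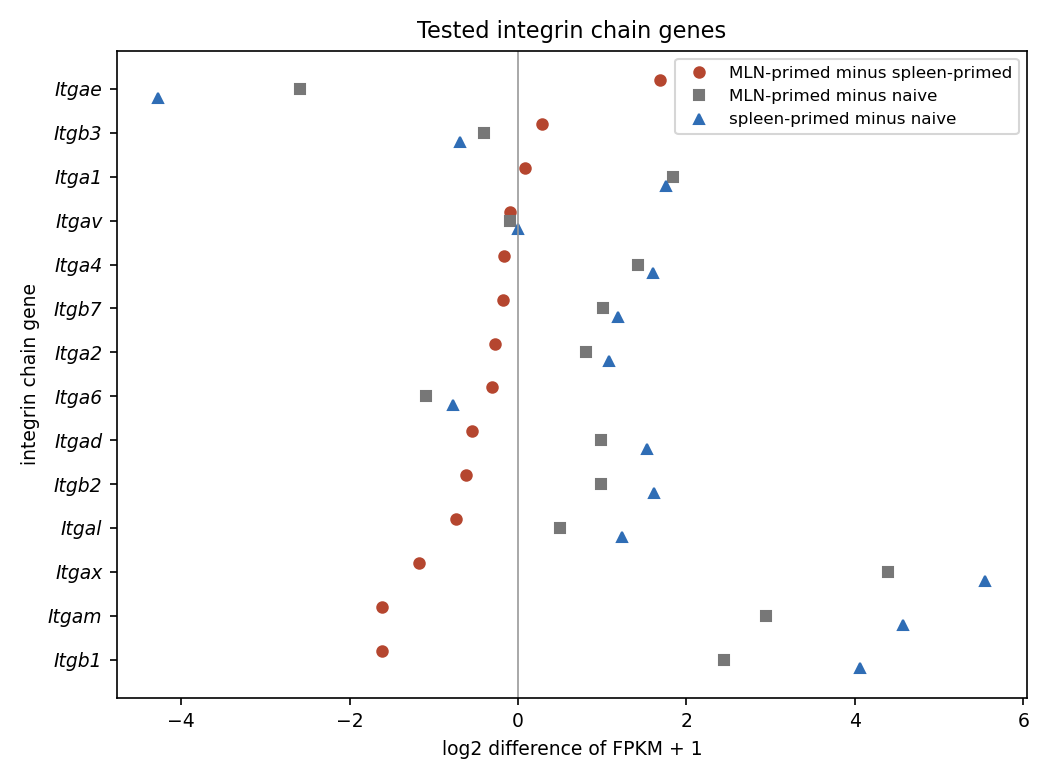
Log2 differences of FPKM + 1 (horizontal axis) for the 14 tested integrin chain genes (rows, ordered by MLN-primed minus spleen-primed), with a marker for each comparison. Itgae at 1.68 stands at the top for MLN-primed minus spleen-primed cells and Itgb1 at -1.62 at the bottom, while both points of Itgae against naive cells, at -2.59 and -4.27, lie to the left.

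The ratio of Itgb7 to Itgb1, added after the values were seen, was 3.29 ± 0.176 in MLN-primed, 1.21 ± 0.0306 in spleen-primed and 9.21 ± 0.253 in naive cells (SD, n = 3 each). The groups did not overlap, and the log2 difference between MLN-primed and spleen-primed cells was 1.44 (exact permutation p = 0.10, the smallest possible). The β1 transcript thus lay below the β7 transcript in every group and nearest to it in spleen-primed cells.

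A list of 24 genes that act on integrin activation from inside the cell mixes activators with inhibitors, so its counts give no single direction of activation. Of these genes, 20 were tested, 7 were lower in MLN-primed cells than in spleen-primed cells and 13 did not pass. Over all tested genes 13.1% were lower, and the list had a median of -0.21 against 0.03. Skap1, an adaptor of the integrin activation complex, averaged 90.6 ± 1.64 FPKM in MLN-primed cells and 122.9 ± 2.25 FPKM in spleen-primed cells (log2 difference -0.44 ± 0.06, limma adjusted p = 0.000502). Rasgrp1, an exchange factor downstream of the T cell receptor, averaged 15.1 ± 2.52 FPKM in MLN-primed cells, against 22.4 ± 3.92 FPKM in spleen-primed cells (-0.54 ± 0.15, limma adjusted p = 0.0202). Itgb1bp1, an inhibitor that binds the tail of the β1 chain, averaged 27.7 ± 3.43 FPKM in MLN-primed cells and 36.7 ± 4.17 FPKM in spleen-primed cells (-0.39 ± 0.11, limma adjusted p = 0.0205). Against naive cells, 9 were higher and 8 lower in MLN-primed cells, where 78.7% of all tested genes passed, and 10 higher and 6 lower in spleen-primed cells, where 75.8% passed.

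Among 31 chemokine and trafficking receptors, 19 were tested, and 4 were higher in MLN-primed cells than in spleen-primed cells (Ccr9, Gpr15, Gpr55 and Ccr7) while 12 were lower, where 17.3% of all tested genes were higher and 13.1% lower, with a median of -0.48 against 0.03. Cx3cr1, the fractalkine receptor of cytotoxic effector cells, averaged 13.2 ± 1.38 FPKM in MLN-primed, 62.4 ± 7.14 in spleen-primed and 0.691 ± 0.323 FPKM in naive cells (MLN-primed minus spleen-primed -2.16 ± 0.14, limma adjusted p = 1.69e-05). S1pr5, a sphingosine phosphate receptor known for cell egress from tissues, averaged 4.22 ± 0.314 FPKM in MLN-primed, 22.3 ± 1.90 in spleen-primed and 0.441 ± 0.209 FPKM in naive cells (-2.16 ± 0.12, limma adjusted p = 8.72e-06). Ccr9 had the opposite direction to both in each comparison. Against naive cells, 10 receptors were higher and 9 lower in MLN-primed cells, beside 78.7% of all tested genes passing, and 9 higher and 8 lower in spleen-primed cells, beside 75.8%.

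Among 33 genes known to regulate the homing receptors or CD103, 29 were tested, and 3 were higher (Hic1, Batf and Irf4) and 7 lower in MLN-primed cells than in spleen-primed cells, with a median of -0.19. These 10 of 29 stood near the 30.4% of all tested genes that passed. Hic1, a repressor that retinoic acid induces in intestinal T cells, averaged 9.91 ± 1.36 FPKM in MLN-primed, 1.86 ± 0.163 in spleen-primed and 0.297 ± 0.153 FPKM in naive cells. Its log2 difference between the primed groups was 1.93 ± 0.12 (limma, adjusted p = 1.45e-05). Eomes, a T-box factor known to hold back CD103+ resident memory cells, averaged 11.9 ± 0.784 FPKM in MLN-primed, 25.7 ± 3.38 in spleen-primed and 5.69 ± 1.71 FPKM in naive cells (-1.04 ± 0.17 between the primed groups, limma adjusted p = 0.00141). Rara, the retinoic acid receptor alpha gene, averaged 6.96 ± 1.43 FPKM in MLN-primed, 13.3 ± 2.996 in spleen-primed and 26.6 ± 1.57 FPKM in naive cells (-0.84 ± 0.16 between the primed groups, limma adjusted p = 0.0043). The T-box factor Tbx21 and the TGF-β pathway genes Tgfbr2, Smad3 and Smad4 were also among the 7 that were lower, at -0.54, -0.53, -0.55 and -0.32. Against naive cells, 11 regulators were higher and 13 lower in MLN-primed cells (78.7% of all tested genes passed), and 11 higher and 12 lower in spleen-primed cells (75.8% passed).

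Lztfl1's partners, the BBSome and the genes that assemble it, were counted beside it. Of 12 genes, 7 were tested, and 1, Arl6, a small GTPase that brings the BBSome to membranes, was higher in MLN-primed cells at 3.22 ± 0.286 FPKM against 2.32 ± 0.0866 FPKM in spleen-primed cells (log2 difference 0.34 ± 0.09, limma adjusted p = 0.0183). The other 6 did not pass, where 30.4% of all tested genes did. The median of the list was 0.11, against 0.03 over all tested genes, and 3 genes were higher and 3 lower against naive cells in each primed group, near the 78.7% and 75.8% of all tested genes that passed in MLN-primed and spleen-primed cells. Of the ligands of these receptors and integrins, Ccl25 alone was tested, at 1.07 ± 0.189 FPKM in MLN-primed, 0.973 ± 0.147 in spleen-primed and 0.649 ± 0.205 FPKM in naive cells, and the primed groups differed by 0.07 ± 0.11 (limma, adjusted p = 0.697).

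Profiles over the 9 libraries were compared by the root mean square distance of log2(FPKM + 1), each gene centred on its own mean, among 7786 genes, as a description with no test. Nearest to Ccr9 were Itgae at 1.11, Trib2 at 1.46 and Snhg12 at 1.499, with Lztfl1 at 1.51, farther away than the nearest profile of any of the other 5 genes. Trib2, a pseudokinase gene, averaged 6.58 FPKM in MLN-primed, 3.37 in spleen-primed and 35.7 FPKM in naive cells. Nearest to Lztfl1 were Nme4 at 0.330, Tubb2b at 0.339 and P2rx4 at 0.373, and Tubb2b, a tubulin gene, averaged 11.4 FPKM in MLN-primed, 5.01 in spleen-primed and 11.5 FPKM in naive cells. Gpr15 lay nearest to Srm (0.184), Cluh (0.186) and Ifrd2 (0.192). Srm, the gene of spermidine synthase, averaged 84.4 FPKM in MLN-primed, 31.5 in spleen-primed and 29.5 FPKM in naive cells. The genes nearest to Itgae were Cnn3 at 0.491, Treml2 at 0.509 and Trib2 at 0.543, and Cnn3, a calponin gene, averaged 1.21 FPKM in MLN-primed, 0.390 in spleen-primed and 20.9 FPKM in naive cells. Itga4 and Itgb7 each had much closer neighbours, from 0.0843 (Ncapd3) and 0.0556 (Slc2a1), in profiles that were high in both primed groups.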

How the data were processed

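RNA extraction used the RNeasy Plus Micro kit, and sequencing libraries were prepared by TruSeq Stranded mRNA, per the labels' protocols. The authors deposited FPKM per gene and library, made with TopHat and Cufflinks on mm10, per the submitters' processing notes; their versions, like any filters, are not given in these sources. Because FPKM are scaled by length and library total, a change in abundant transcripts moves the values of the rest. A second deposited table was identical byte for byte and was not used. Of 24067 rows, 131 without a symbol (0.0479% of the FPKM) were left out. Depth was estimated from the steps between low FPKM values, taking 160 bases off each transcript length.

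Genes that reached 1 FPKM in 3 or more libraries were tested on log2(FPKM + 1) by limma 3.58.1 with an intensity trend (R 4.3.3) over all 9 libraries, with Benjamini-Hochberg adjustment over 10185 genes, and the code was tested on simulated data. Ratios were compared by exact permutation (scipy 1.17.1). The labels do not say that libraries of a group came from separate animals, and p-values then reflect how far libraries spread, possibly for technical reasons. The 6 genes, the gene lists and the tests were chosen with earlier results of these data known. Named beside the 6 were the 3 genes of each list with the largest difference that passed between MLN-primed and spleen-primed cells, the 3 nearest profiles per gene, and neighbours on the chromosome; further list genes were named after their values were seen. Deviations from group means correlated between libraries with the same number at 0.645, -0.24 and 0.485 for MLN-primed and spleen-primed, 0.145, -0.241 and 0.116 for MLN-primed and naive, and 0.16, 0.116 and 0.236 for spleen-primed and naive libraries. Libraries of unlike number reached 0.512, for MLN-primed 2 with spleen-primed 3. These correlations cannot show whether same-numbered libraries share an animal, and the main fit did not pair libraries by number. Alternatives were the pseudocount, the filter, the scaling, the trend, the libraries fitted, the replicate block and leaving out libraries, and, added after the data were seen, removal of the length trend and the Itgb7 to Itgb1 ratio. The genes described around Ccr9 leave out a result that is not reported here. Genes were placed on the RefSeq annotation of GRCm38.p6.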

Additional observations from a re-analysis of the deposited data

Results flagged for a closer look

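The change from naive cells differed between the kinds of priming for 4 genes, by limma's test of the difference itself, which with a shared naive group is the contrast of MLN-primed minus spleen-primed cells. For Ccr9 it was 4.33 on the log2(FPKM + 1) scale, with both primed groups below naive cells and every MLN-primed library above every spleen-primed library. For Lztfl1 it was 1.69, with spleen-primed cells alone below naive cells past the threshold. For Gpr15 it was 1.31, with MLN-primed cells alone above naive cells past the threshold. For Itgae it was 1.68, with both primed groups below naive cells and MLN-primed cells between.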

How the results depend on the processing

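Of 357 member results under other settings, 353 kept their direction and side of the threshold, and 16 of 18 member comparisons did so in every setting. Between MLN-primed and spleen-primed cells, Itgb7 passed without both spleen-primed library 3 and MLN-primed library 1 (-0.28, limma adjusted p = 0.0139), and leaving out single libraries gave -0.24 to -0.14, passing without spleen-primed library 3. The Lztfl1 difference of MLN-primed from naive cells turned to -0.10 under median-of-ratios scaling (limma adjusted p = 0.339) and ranged from -0.03 to 0.15 with single libraries left out, below 0 without MLN-primed library 2 (-0.03). The log2 ratio of Itga4 to Itgb7 between MLN-primed and spleen-primed cells ranged from -0.10 to 0.13 with single libraries left out, below 0 without MLN-primed library 2 or spleen-primed library 1. The number of genes lower in MLN-primed cells than in spleen-primed cells was 1333, and 884 to 1389 with single libraries left out, lowest without spleen-primed library 2. The cause was not tested. The replicate block changed no call of the 6 genes, with Ccr9 at 4.33, Itgb7 at -0.18 (limma adjusted p = 0.0753) and Gpr15 in spleen-primed minus naive cells at 0.23. With a pseudocount of 0.1, MLN-primed minus spleen-primed was 7.07 for Ccr9 and 3.18 for Itgae, MLN-primed minus naive was 2.34 for Gpr15, and spleen-primed minus naive was -7.95 for Ccr9 and 0.47 for Gpr15, since that setting compresses low values less. Quantile normalisation gave 0.87 for Itga4 and 0.42 for Itgb7 in MLN-primed minus naive cells and 0.54 for Itgb7 in spleen-primed minus naive cells; the median of all tested genes in those comparisons was 0.15 and 0.10 as deposited, -0.04 and -0.07 under quantile normalisation, and -0.01 in both under median-of-ratios scaling. Itga4 in MLN-primed minus spleen-primed cells was -0.30 without MLN-primed library 2, -0.09 without MLN-primed library 1 and -0.04 without both MLN-primed library 1 and spleen-primed library 3. Gpr15 could not be tested with a filter of 5 FPKM. List counts were within 1.5 times in 671 of 720 settings. Single calls between MLN-primed and spleen-primed cells were lost with 1 library left out for Arl6 (MLN-primed 2, spleen-primed 2 or 3, adjusted p up to 0.0717), Itgb3 (MLN-primed 2 or 3, spleen-primed 1 or 2, up to 0.0822), Itgb1bp1 (the same libraries, up to 0.0827), Rasgrp1 (MLN-primed 1 or spleen-primed 3, up to 0.0572) and Ccr7 (MLN-primed 3 or spleen-primed 1, up to 0.0679), and the calls of Irf4 and Gpr55 were lost in 10 and 11 of 20 settings. Itgal in MLN-primed minus naive cells turned to -0.11 under quantile normalisation. The low level of Ccr9 in spleen-primed cells is limited by its 12 to 22 fragments.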
